A study of Rattus norvegicus with 12 samples.

Results

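The glucocorticoid receptor gene Nr3c1, the gatekeeper enzyme gene Hsd11b2 and the receptor target genes Klf9 and Dusp1 were followed in the fetal rat kidney. The members were found by gene symbol, as the transcript clusters (the probe groups of the array, roughly 1 per gene) that carry that 1 symbol in the platform annotation. All 4 were found, each on 1 cluster, among 14557 named genes and 36685 clusters. Kidneys were taken from Sprague-Dawley fetuses at 19 days of gestation and measured on 12 Affymetrix Rat Gene 2.1 ST arrays. The 6 CPS arrays came from mothers under chronic photoperiod shifting, in which light and dark were reversed every few days during pregnancy and the normal photoperiod was given back shortly before sampling. The 6 LD arrays came from mothers kept in 12 h of light and 12 h of dark. No array carried a mutation or a drug, and each array held a non-sexed pool of kidneys from 6 fetuses of a mother, so differences between single fetuses or between sexes could not be seen. The hour of dissection is given as 20 h in 1 label and as 8 h in another, for both groups alike. The study's methods give 8 h for the array samples.

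Glucocorticoids reach the fetus from the mother and, late in gestation, from the fetal adrenal. The receptor encoded by Nr3c1 waits in the cytoplasm in a complex with heat shock chaperones and immunophilins, binds the hormone, moves to the nucleus and there raises or lowers the transcription of its targets. The enzyme encoded by Hsd11b2 turns corticosterone, the active hormone of the rat, into an inactive form, and in the kidney collecting duct it thereby keeps the hormone off the mineralocorticoid receptor. Klf9 encodes a zinc finger transcription factor of the Kruppel-like family, and Dusp1 a phosphatase that switches off MAP kinases. Both are induced by glucocorticoids in many cell types, and both also answer to other signals.

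The windows around the starts of Klf9 and Dusp1 are shown because these members passed an unadjusted p under 0.05 in limma, in opposite directions. Neither passed after adjustment. Both were taken from RefSeq on the GRCr8 rat build and hold 250 bases before and 50 after the annotated start. The Klf9 window lies at chr1:230126396-230126695 and the Dusp1 window at chr10:17184603-17184902, both on the plus strand. Capitals mark CCAAT on either strand in Klf9, and in Dusp1 the cAMP response element TGACGTCA and the E-box CACGTG.
Klf9: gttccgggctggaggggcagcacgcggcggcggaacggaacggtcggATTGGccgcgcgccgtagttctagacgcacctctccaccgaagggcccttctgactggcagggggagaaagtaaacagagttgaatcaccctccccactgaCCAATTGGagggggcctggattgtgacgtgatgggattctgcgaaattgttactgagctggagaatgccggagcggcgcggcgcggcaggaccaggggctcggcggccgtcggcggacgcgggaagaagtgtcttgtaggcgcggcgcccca
Dusp1: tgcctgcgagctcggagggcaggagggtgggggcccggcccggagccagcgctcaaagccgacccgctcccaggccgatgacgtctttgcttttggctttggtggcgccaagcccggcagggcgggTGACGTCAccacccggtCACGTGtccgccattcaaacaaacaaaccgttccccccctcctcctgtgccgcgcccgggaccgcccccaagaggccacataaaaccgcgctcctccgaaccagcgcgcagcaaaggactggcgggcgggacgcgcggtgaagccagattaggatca
The Klf9 window held 3 matches to CCAAT, of which a pair overlapped on opposite strands, and 65.3% of its bases were G or C. The Dusp1 window held 1 TGACGTCA and 1 CACGTG, which did not overlap, and its G and C share was 68.0%. Of all 33469 rat promoter windows of this length, 37.5% held CCAAT, 1.83% TGACGTCA and 6.42% CACGTG on either strand. The half-site letters AGAACA of the glucocorticoid response element were in neither window, nor in the pair of windows listed for Nr3c1, against 20.7% of all windows. This says only that these letters do not stand in these bases. No window is listed for Hsd11b2.

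Of the 4 members, 2 passed an unadjusted p under 0.05 in limma (the cut of 0.05 is the study's, whose own test was an unpaired one-way test): Klf9 was higher and Dusp1 was lower in CPS than in LD kidneys, while the receptor and the enzyme did not pass. The background of that threshold was 5.30% of all clusters (2.38% higher and 2.93% lower in CPS) and 4.72% of the named genes (2.94% higher and 1.78% lower), so that calls at this level were about as frequent over all genes as the threshold itself allows. The split by direction depended on the scaling, with 872 clusters higher and 1074 lower on the deposited values, 1151 higher and 672 lower after median centring, and 1097 higher and 911 lower after a further quantile normalization. No cluster passed after Benjamini-Hochberg adjustment over all clusters, and the lowest adjusted p of limma was 0.887. The values below are log2 expression values made by Robust Multiarray Average (RMA), and a difference is CPS minus LD. In whole kidneys, fewer cells of a type and less RNA per cell cannot be told apart.

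Nr3c1, the receptor itself, ran between 7.40 and 7.70 on the CPS arrays (median 7.49) and between 7.34 and 7.80 on the LD arrays (median 7.58). The CPS values lay wholly inside the LD range. The group means were 7.53 ± 0.13 in CPS and 7.58 ± 0.17 in LD kidneys (SD, n = 6 each), and the difference of -0.05 (SE 0.09) had a 95% interval of -0.25 to 0.15. In folds, that interval reaches 0.84 to 1.11. The exact permutation p over all regroupings of the arrays was 0.58. All 12 arrays together spanned 1.38-fold.

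Hsd11b2, the enzyme that inactivates corticosterone, ran between 6.57 and 6.95 in CPS kidneys (median 6.90) and between 6.53 and 7.11 in LD kidneys (median 6.77). Of the CPS arrays, 5 lay close together between 6.86 and 6.95, and replicate 1 stood below them at 6.57. The means were 6.85 ± 0.14 in CPS and 6.78 ± 0.20 in LD kidneys (SD, n = 6 each). Their difference of 0.07 (SE 0.10) had a 95% interval of -0.15 to 0.29, or 0.9 to 1.22 in folds, and an exact permutation p of 0.506. Without CPS replicate 1 it was 0.13, and still did not pass.

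Klf9, the transcription factor gene, was higher in CPS kidneys by 0.28 (SE 0.11), a fold of 1.21 with an interval of 1.03 to 1.43. It ran between 3.53 and 3.97 on the CPS arrays (median 3.82) and between 3.30 and 3.78 on the LD arrays (median 3.52). The groups overlapped, although every CPS array stood above the LD mean, 3 CPS arrays above the highest LD array and 3 LD arrays below the lowest CPS array. The means were 3.80 ± 0.16 in CPS and 3.52 ± 0.21 in LD kidneys (SD, n = 6 each). The p of limma was 0.0241, the adjusted p 0.887 and the exact permutation p 0.0346, and 887 of the 36685 clusters had a lower p. The signal was dim, yet above the 95th percentile of 1244 olfactory and vomeronasal receptor genes, which was 2.66. With single arrays left out in turn, the call was lost in 5 of 12 fits, those without CPS replicates 1 or 5 or LD replicates 1, 2 or 5, while the difference stayed between 0.23 and 0.33.

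Dusp1, the MAP kinase phosphatase gene, was lower in CPS kidneys by 0.22 on the log2 scale (SE 0.09), a fold of 0.859 with an interval of 0.748 to 0.986. It ran between 6.87 and 7.25 on the CPS arrays (median 7.01) and between 6.996 and 7.41 on the LD arrays (median 7.27). Again the groups overlapped, with 3 CPS arrays below the lowest LD array and 4 LD arrays above the highest CPS array. CPS replicate 3 was the exception among the CPS arrays, the only one above the LD mean. The means were 7.03 ± 0.15 in CPS and 7.25 ± 0.15 in LD kidneys (SD, n = 6 each). The p of limma was 0.0336, the adjusted p 0.887 and the exact permutation p 0.0346, and 1276 clusters had a lower p. The call was lost in 7 of 12 fits with 1 array left out (CPS replicates 2, 4 or 5, or LD replicates 1, 2, 4 or 6), where the difference stayed between -0.27 and -0.19 over all 12 fits. The array with the lowest Dusp1, CPS replicate 2, and that with the highest, LD replicate 6, also had the highest mean of 15 liver genes in their groups (6.54 and 6.14). Without both of them Dusp1 differed by -0.15, with a limma p of 0.141, and Klf9 by 0.34, with a limma p of 0.0149. As both arrays hold extreme values of Dusp1, leaving them out had to shrink its difference, whatever their liver signal. Over the 12 arrays r of Dusp1 with the liver mean was -0.15 (permutation p = 0.631). It was -0.49 within CPS (exact p = 0.315) and 0.68 within LD kidneys (exact p = 0.129).

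**Figure D1:**
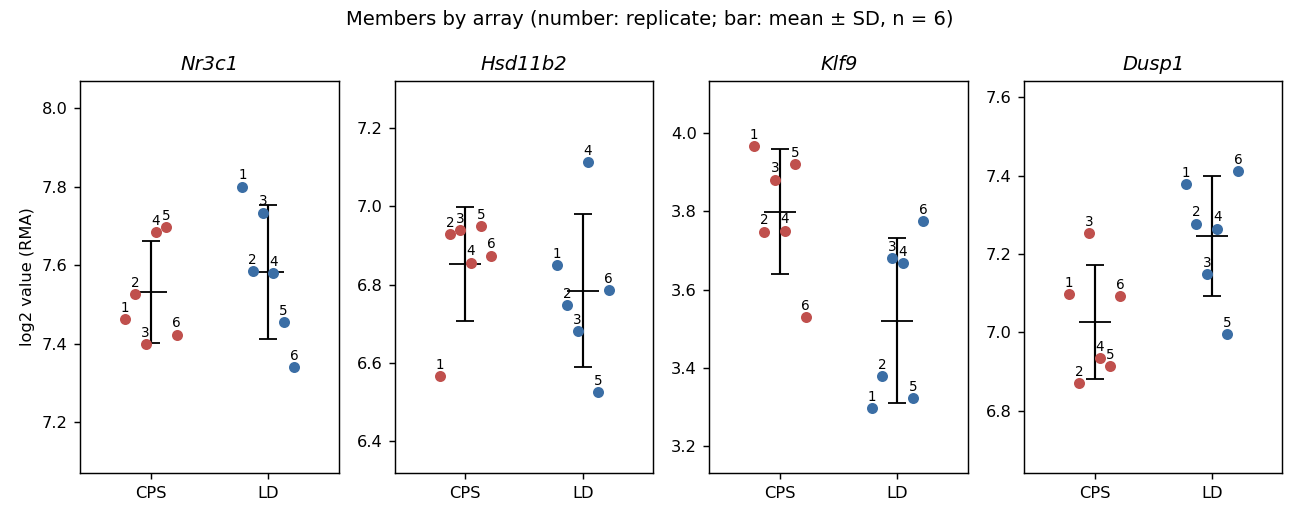
The log2 values of the 4 members on each array, CPS on the left and LD on the right of each panel, with the group mean and SD as black bars; points are numbered by replicate, numbers do not pair the groups, and all panels span 1 log2 unit. Klf9 averaged 3.80 in CPS and 3.52 in LD kidneys and Dusp1 7.03 and 7.25, with overlap in both, while the groups of Nr3c1 and Hsd11b2 lie over each other.

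The residual SD within groups was 0.15 for Nr3c1, 0.17 for Hsd11b2, 0.19 for Klf9 and 0.15 for Dusp1, against a median of 0.18 over the named genes and 0.23 over all clusters. The whole range over the 12 arrays was 1.5-fold for Hsd11b2, 1.59-fold for Klf9 and 1.45-fold for Dusp1.

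The other genes of the pathway came from 9 lists, and 123 distinct genes of these besides the members were measured. Of them, 5 were higher and 4 lower at the unadjusted p under 0.05 and 114 did not pass. That is 7.32% against the 4.72% of all named genes, and their median difference was 0.03 against 0.01 for all named genes. None passed after adjustment.

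Around the receptor, the group with the most even direction was that of its chaperones and immunophilins. All 14 that were measured had a lower CPS mean, with a median of -0.06, but 1 passed the test. Of all named genes, 53.6% had a higher CPS mean. After each array was centred on its median 9 of the 14 remained below 0, and 12 after a further quantile normalization. Of all 36685 clusters, 18848 were below 0 on the deposited values, 14837 after centring and 17387 after quantile normalization. The 14 genes share arrays and normalization, so these counts are a description. The 1 that passed was Dnajb1, a co-chaperone of the heat shock proteins. It lay between 7.26 and 7.49 on the CPS arrays (median 7.41) and between 7.51 and 7.76 on the LD arrays (median 7.69). Its difference was -0.28 (SE 0.07), with a limma p of 0.00102 and an adjusted p of 0.887. The exact permutation p was 0.00216, which no pair of groups of this size can undercut. Dnajb1 is named because it passed in its list, and the share of all genes at that lowest p is not given here. Hsp90ab1, the constitutive cytosolic chaperone, differed by -0.04, and Fkbp5, an immunophilin that lowers hormone binding, by -0.01. Among 11 coregulators, Ncoa1, which the receptor recruits to activate transcription, was higher by 0.21 (exact permutation p = 0.0281), and the other 10 did not pass. Its call was lost in 6 of 12 fits with 1 array left out (CPS replicates 2, 4 or 5, or LD replicates 1, 5 or 6), with the difference between 0.16 and 0.24. The other steroid receptor that could be named, Esr2, differed by -0.08, and Nr3c2, the mineralocorticoid receptor gene, was not analysed here.

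Around the enzyme, H6pd was the only one of 8 genes of steroid activation, inactivation and transport to pass. H6pd supplies the cofactor with which Hsd11b1 regenerates active hormone, the reverse of the reaction of Hsd11b2. It ran between 5.07 and 5.58 in CPS kidneys (median 5.35) and between 4.71 and 5.26 in LD kidneys (median 5.04), with 5 of 6 CPS arrays above every LD array. The difference was 0.34 (SE 0.11), a fold of 1.26, with a limma p of 0.00942 and an exact permutation p of 0.0152, and it passed the unadjusted threshold in each of the 12 fits with an array left out. Hsd11b1 itself was not analysed here. The largest difference of that list, 0.61 for Serpina6, the hormone-binding globulin made by the liver, did not pass, and the liver mean of these arrays was 5.36 ± 0.76 in CPS and 4.78 ± 0.77 in LD kidneys (SD, n = 6 each; exact permutation p = 0.219).

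Klf9 and Dusp1 stood among 38 measured genes known to be induced by glucocorticoids, and the rest of that list did not move as 1 group. Of the other 36, 1 was higher, 2 were lower and 33 did not pass. Irs2, an adaptor of the insulin receptor, was higher by 0.19 (exact permutation p = 0.0346). Lcn2, a secreted iron-carrier binding protein, was lower, at 6.38 ± 0.30 in CPS and 6.76 ± 0.11 in LD kidneys (exact permutation p = 0.00649, n = 6 each), and Rgs2, which shortens G protein signals, was lower by 0.19 on the log2 scale (exact permutation p = 0.0368). With 1 array left out in turn, the Lcn2 call was kept in all 12 fits. The Rgs2 call was lost in 10 of 12, all but those without CPS replicate 6 or LD replicate 3 (-0.23 to -0.14), and under median centring (-0.15, limma p of 0.131). The Irs2 call was lost in 9 of 12, all but those without CPS replicates 3 or 6 or LD replicate 2 (0.15 to 0.24). The targets most used as readouts of the receptor did not pass. Fkbp5 averaged 8.07 ± 0.11 in CPS and 8.08 ± 0.02 in LD kidneys, with an interval of -0.15 to 0.12 for the difference. Per1, a clock gene and direct target, averaged 6.49 ± 0.26 in CPS and 6.44 ± 0.20 in LD kidneys, with an interval of -0.24 to 0.34. Zbtb16, a transcriptional repressor, differed by 0.11 (interval -0.22 to 0.43) and Cdkn1c, a cell cycle inhibitor, by 0.09 (interval -0.05 to 0.23). Tsc22d3 and Sgk1 were not analysed here. Of 16 genes known to be repressed by glucocorticoids, mostly cytokines and matrix proteases, 0 passed in limma, and 0 in the methods' unpaired one-way test, and their differences ran from -0.19 to 0.22.

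**Figure D2:**
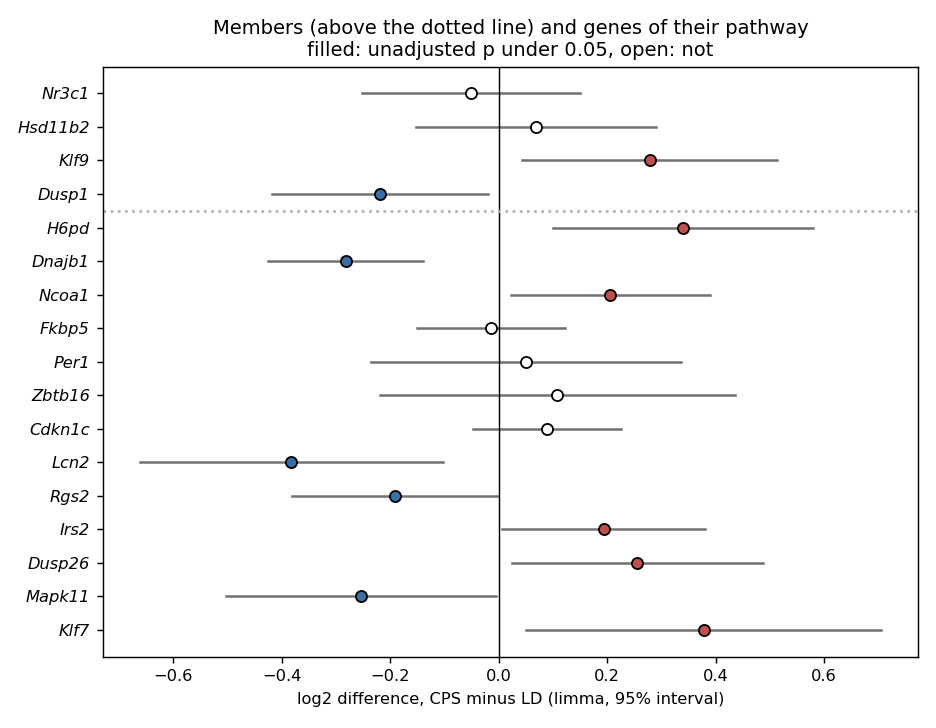
Log2 differences, CPS minus LD, of the members (above the dotted line) and of genes of the same pathway, with 95% intervals of limma (n = 6 each); filled points passed the unadjusted p under 0.05. Klf9 at 0.28 and Dusp1 at -0.22 lie on opposite sides of 0, and the intervals of Nr3c1, Hsd11b2, Fkbp5, Per1, Zbtb16 and Cdkn1c all include 0.

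The families of the 2 targets were also read. Among 15 Kruppel-like factors 13 had a higher CPS mean, with a median of 0.10, and Klf9 and Klf7 passed. Of all named genes, 53.6% had a higher CPS mean. Klf7, a family member known from developing neurons, was higher by 0.38 (SE 0.15, exact permutation p = 0.0433). The count of 13 was the same after median centring and after a further quantile normalization. Centring raised the median difference of all clusters from -0.005 to 0.03, and quantile normalization raised it to 0.009. The factors share arrays and normalization, so the count is a description. Among 16 dual specificity phosphatases the median was 0.02 with Dusp1 included, Dusp26 was higher by 0.26 (exact permutation p = 0.039), and Dusp4, an inducible nuclear phosphatase like Dusp1, differed by -0.23 without passing (limma p = 0.0606). Of 12 MAP kinases and their kinases, the substrates' side of Dusp1, Mapk11 (a p38 kinase) was the only one to pass, lower by 0.25 on the log2 scale with a limma p of 0.0456 and an exact permutation p of 0.0606, and it did not pass in the methods' unpaired one-way test (p of 0.0514). Its call was lost in 9 of 12 fits with 1 array left out, all but those without CPS replicates 1 or 2 or LD replicate 5 (-0.34 to -0.20). The Klf7 call was lost in 5 of 12 (CPS replicates 2 or 5, or LD replicates 1, 5 or 6; 0.31 to 0.48) and the Dusp26 call in 6 of 12 (CPS replicates 1, 2 or 5, or LD replicates 1, 5 or 6; 0.21 to 0.32). Dusp1 is also an immediate early gene, and of 20 other immediate early genes 0 passed in limma. Their mean was 5.38 ± 0.05 in CPS and 5.36 ± 0.07 in LD kidneys (exact permutation p = 0.535, n = 6 each). The mean of 11 clock and clock output genes was 6.48 ± 0.08 in CPS and 6.45 ± 0.07 in LD kidneys (exact permutation p = 0.537, n = 6 each), and 0 of them passed. The share that passed over all named genes was 4.72%.

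**Figure D3:**
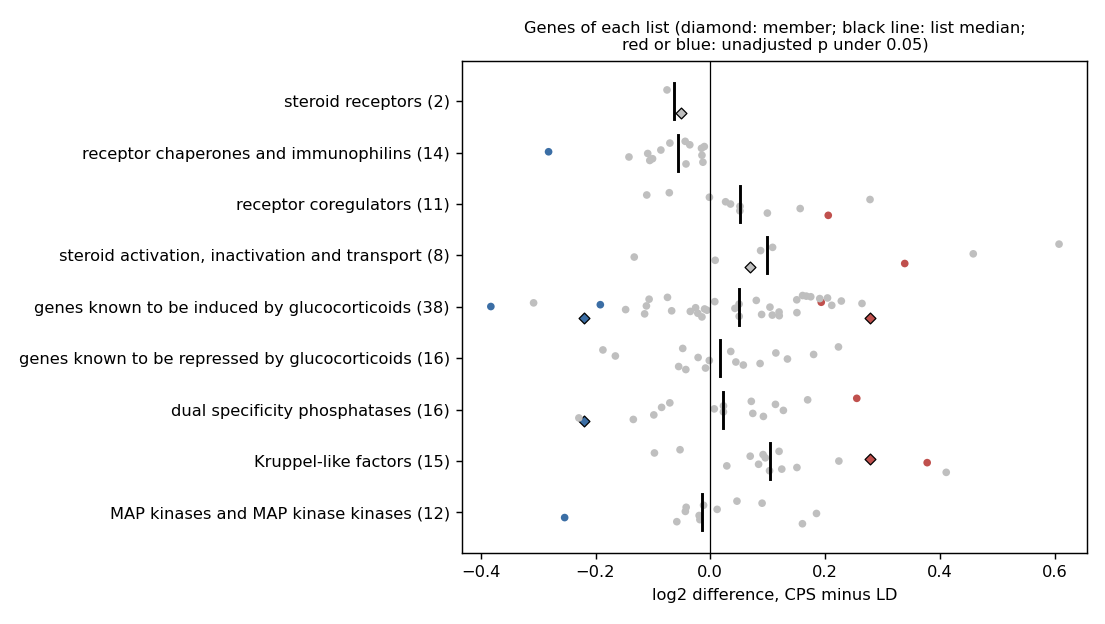
Log2 differences, CPS minus LD, of every measured gene in the 9 lists (number measured in brackets), with the list median as a black line and the members as diamonds; red and blue points passed the unadjusted p under 0.05. Chaperones lie left of 0 (median -0.06) and Kruppel-like factors mostly right of it (median 0.10), and Klf9 and Dusp1 lie on opposite sides of the induced genes.

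The receptor, the enzyme and the targets showed no co-variation over the 12 arrays that passed a permutation test. Pearson's r of the 6 pairs ran from -0.27 to 0.22 and Spearman's rho from -0.27 to 0.22, with an adjusted p of 0.845 for every r and of 0.907 or 0.938 for rho. With 12 arrays the intervals were wide, such as -0.46 to 0.67 for Nr3c1 and Hsd11b2 (r = 0.15, permutation p = 0.636; rho = 0.03, permutation p = 0.938). Nr3c1 against Klf9 gave r = -0.23 (permutation p = 0.473) and rho = -0.26, and without the 2 arrays with the farthest Nr3c1, r was 0.12. Klf9 against Dusp1 gave r = -0.27 (permutation p = 0.382) and 0.20 after the group means were removed. Nr3c1 against Dusp1 gave r = -0.78 within CPS (exact p = 0.0792, adjusted p 0.475) and 0.04 within LD kidneys, and the difference between the groups was not tested. CPS replicates 4 and 5 had the 2 highest CPS values of Nr3c1 with Dusp1 of 6.94 and 6.91, and CPS replicate 3 the lowest Nr3c1 with the highest CPS Dusp1.

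Set against the 38 induced genes after removal of group means, Nr3c1 had a positive r with 29 and a negative r with 9 (median 0.15), and Hsd11b2 a positive r with 28 and a negative r with 10 (median 0.21). Over all named genes the medians were 0.01 and 0.03, with 50.9% and 53.8% positive. With the mean of 12 kidney genes, r after the same removal was 0.74 for Nr3c1 (permutation p = 0.0126, adjusted p 0.253). For Hsd11b2 it was 0.55 (permutation p = 0.0719, adjusted p 0.542). The part of that relation in the counts of positive r was not tested. The genes share arrays and normalization, so these counts are a description. The highest r with Nr3c1 were those of Gpd1 (0.81), a glycerol phosphate dehydrogenase, and Atp1b1 (0.72), a sodium pump subunit, and the lowest that of Tat (-0.55), a tyrosine-degrading liver enzyme. With Hsd11b2 they were Ehd3 (0.60) and Atp1b1 (0.60), and the lowest Cebpb (-0.69), a transcription factor.

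Hsd11b2 is known from the collecting duct, and its level ran with the mean of 14 ureteric bud and collecting duct genes. Pearson's r was 0.64 (permutation p = 0.0264, adjusted p 0.369 over the 40 member and marker relations computed), rho was 0.56 (permutation p = 0.0616), and r was 0.66 within CPS and 0.70 within LD kidneys. Without the 2 arrays farthest in the marker mean it was 0.64. The rank correlations within the groups were lower, at 0.26 in CPS (exact p = 0.658) and 0.31 in LD kidneys (exact p = 0.564). CPS replicate 1, with the lowest Hsd11b2 of its group, had a marker mean of 6.46, against 6.44 in CPS replicate 6 with an Hsd11b2 of 6.87. Hsd11b2 ran with the mean of 12 general kidney genes about as closely (r = 0.58, permutation p = 0.0469, adjusted p 0.369; rho = 0.62, permutation p = 0.0338), and whether the relations differed was not tested. The collecting duct mean itself was 6.75 ± 0.23 in CPS and 6.64 ± 0.13 in LD kidneys (exact permutation p = 0.294, n = 6 each).

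Klf9 and the mean of 12 adrenal cortex genes were both higher in CPS kidneys, but their r was negative within each group. The adrenal mean was 3.42 ± 0.24 in CPS and 3.13 ± 0.13 in LD kidneys (exact permutation p = 0.0281, adjusted p 0.281 over 10 marker lists, n = 6 each), with a range of 3.13 to 3.74 in CPS and of 2.998 to 3.32 in LD kidneys. At the unadjusted p under 0.05, 5 of the 12 genes were higher, against 2.94% of all named genes. These genes share arrays and normalization, so the count is a description. The part of the adrenal signal in the difference of Klf9 was not tested. Over the 12 arrays r was -0.03 and rho had a permutation p of 0.956. After removal of group means r was -0.74 (permutation p = 0.00394, adjusted p 0.158). Within CPS r was -0.92 (exact p = 0.0153, adjusted p 0.306) and rho -0.83 (exact p = 0.0583). Within LD kidneys r was -0.66 (exact p = 0.199) and rho -0.54 (exact p = 0.297), so the relation did not pass in LD kidneys alone. CPS replicate 6 held the highest adrenal mean (3.74) and the lowest CPS Klf9 (3.53). Over the 12 arrays Klf9 had its highest r with the mean of 7 erythroid genes, at 0.60 (permutation p = 0.0446, adjusted p 0.369). With the mean of 15 liver genes r was 0.58 (permutation p = 0.0516, adjusted p 0.369) and rho 0.61 (permutation p = 0.041). After removal of group means r was 0.51 (permutation p = 0.109) and 0.47 (permutation p = 0.15). The part of either tissue in Klf9 was not tested. Nr3c1 had its highest r over the 12 arrays with the mean of the 12 kidney genes, at 0.57 (permutation p = 0.0554, adjusted p 0.369) with rho = 0.57 (permutation p = 0.0559). After removal of group means r was 0.74 (permutation p = 0.0126, adjusted p 0.253), with 0.82 within CPS (exact p = 0.0597) and 0.69 within LD kidneys (exact p = 0.142). Without the 2 arrays farthest in the kidney mean, CPS replicate 5 and LD replicate 6, the pooled r was 0.36. Dusp1 ran neither with the immediate early mean (r = 0.08, permutation p = 0.797) nor past adjustment with any other list. Dusp1 with the kidney mean gave r = -0.60 (permutation p = 0.0421, adjusted p 0.369) and rho = -0.61 (permutation p = 0.04). Without the 2 arrays farthest in that mean r was -0.37, so the relation rests in part on those arrays. After removal of group means r was -0.46 (permutation p = 0.149), with -0.75 within CPS (exact p = 0.0958) and -0.17 within LD kidneys (exact p = 0.753).

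**Figure D4:**
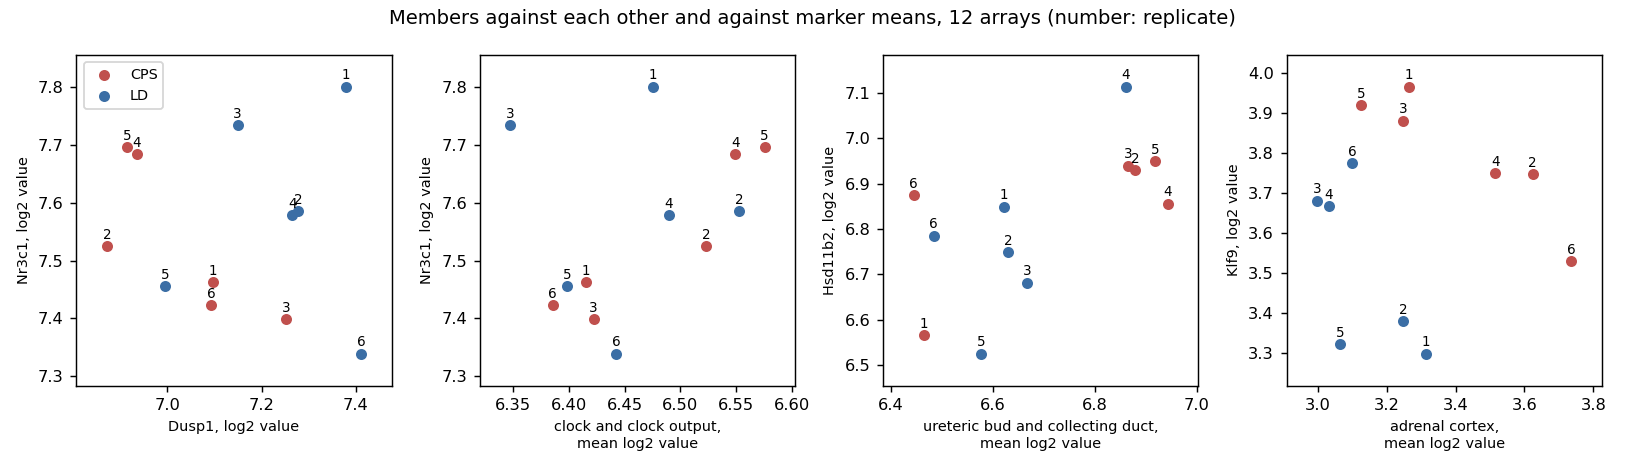
Each of the 12 arrays as a point (CPS red, LD blue, numbered by replicate) for Nr3c1 against Dusp1, Nr3c1 against the clock gene mean, Hsd11b2 against the collecting duct mean and Klf9 against the adrenal cortex mean, all in log2 values. Over the 12 arrays r of Hsd11b2 and the collecting duct mean was 0.64. Klf9 and the adrenal mean had r = -0.92 in CPS and -0.66 in LD kidneys, and Nr3c1 and Dusp1 had r = -0.78 in CPS and 0.04 in LD kidneys. None of these relations passed after adjustment.

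The genes whose pattern was most like that of each member were sought among 9407 named genes at or above the median level, by Pearson's r over the 12 arrays after removal of group means. The highest of so many is large whatever the genes, so the values are given as a description. Nr3c1 was closest to Clrn3 (0.94), Epha7 (0.93), an ephrin receptor, F11r (0.91), a tight junction protein, Glb1 (0.90) and Or51e1 (0.89), and farthest from Zfp13 (-0.95) and Lamtor4 (-0.94). Hsd11b2 was closest to Git1 (0.92), Amotl2 (0.87), F8 (0.85), Ipcef1 (0.84) and Lrfn4 (0.84), and farthest from Ska1 (-0.88), a spindle protein, and Prkar1b (-0.87). Klf9 was closest to Fat3, Rxra, the retinoid X receptor alpha gene, and Adipor1, at 0.85, then Prr36 and Tmem184b, at 0.84, and farthest from Ndufs6-ps1 (-0.94) and Frmd5 (-0.91). Dusp1 was closest to Tpst1 (0.91), Gsto1 (0.91), Mrpl53 (0.89), Actl10 (0.87) and Dnajb4 (0.86), a heat shock co-chaperone, and farthest from Asb13 (-0.93) and Shc2 (-0.92).

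The arrays as a whole were alike, with medians of 3.31 to 3.50 and correlations of 0.978 to 0.987 between arrays. The mean of 12 kidney genes was 7.18 ± 0.16 in CPS and 7.04 ± 0.14 in LD kidneys (SD, n = 6 each). Signal of neighbouring tissues was less even. The mean of 8 skeletal muscle genes was 5.61 ± 1.23 in CPS and 4.66 ± 0.47 in LD kidneys, with 7.63 in CPS replicate 1 and a range of 4.22 to 7.63 in CPS and 4.01 to 5.41 in LD kidneys, and 1 of the 8 genes was higher at the unadjusted p under 0.05. CPS replicate 1 is the array that also had the lowest CPS Hsd11b2 and the highest Klf9. Without that array Klf9 differed by 0.24, with a limma p of 0.0536. The part of muscle signal in these values was not tested. The liver mean ran from 4.51 to 6.54 in CPS and from 4.12 to 6.14 in LD kidneys. Of the 15 liver genes, 14 had a higher CPS mean, with a median difference of 0.71. At the unadjusted p under 0.05 in limma, 0 of them were higher and 1, Tdo2, was lower. Over all named genes 53.6% had a higher CPS mean, and 2.94% were higher and 1.78% lower at that p.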

How the data were processed

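RNA of 12 pools, 6 CPS and 6 LD, was hybridised by the authors to Rat Gene 2.1 ST arrays. The deposited log2 values were made by the authors by Robust Multiarray Average (background correction, quantile normalization, probe summary) in Affymetrix Expression Console, whose version the sources used here do not give. Whether pools of 1 group came from different mothers rests on the protocol. Symbols came from the platform annotation, with list symbols matched by RefSeq gene ID. CPS and LD were compared over all 36685 clusters with limma 3.58.1 (lmFit, eBayes, two-sided) in R 4.3.3, with the study's threshold (unadjusted p under 0.05) and with Benjamini-Hochberg adjustment, and single genes by exact two-sided permutation over all regroupings. Correlations used 100000 resamples over 12 arrays and all 720 pairings within groups, two-sided. The fit was tested on simulated data. Members and lists were chosen with earlier results of these data known. The text names the members, 8 textbook genes, called genes per list and the genes most and least like each member. Of these, Serpina6, Hsp90ab1, Esr2, Dusp4, Gpd1, Atp1b1, Tat, Ehd3 and Cebpb were chosen after their values were seen. Alternatives were another one-way test, a replicate block, an intensity trend, array weights, centring, quantile normalization, a level filter, 1 cluster per gene and each array left out. The number of arrays limits the precision.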

Additional observations from a re-analysis of the deposited data

Results flagged for a closer look

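Among 34 groups of 6 arrays (17 genes named with values, CPS and LD each), 2 had an array far from the others by Dixon's test, and chance flags about 1 in 20 groups. Hsd11b2 was 6.57 in CPS replicate 1, while the other CPS arrays lay between 6.86 and 6.95, and the gap was 0.756 of the range. That array also had the highest skeletal muscle mean (7.63). Mapk11 was 3.19 in LD replicate 5, while the other LD arrays lay between 3.56 and 3.77, and the gap was 0.645 of the range.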

How the results depend on the processing

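The 4 members kept the direction of their differences in every alternative. Klf9 stayed at 0.28 but did not pass with the replicate block (limma p of 0.0696) or with an intensity trend and robust spread (limma p of 0.0534). Dusp1 did not pass after median centring (-0.18, limma p of 0.095) or, chosen after seeing the data, without the array of the highest liver mean in each group (-0.15, limma p of 0.141). Those arrays also hold the lowest CPS and the highest LD value of Dusp1, so leaving them out had to shrink its difference. Replicate numbers did not pair the arrays: 0 of 6 same-numbered pairs had a correlation of deviations over 0.1 (-0.06 to 0.05) and 1 of 12 arrays correlated best with its own number, and Dusp1 kept its call under the block (limma p of 0.0438). The r of Nr3c1 with Klf9 was 0.094 and with Dusp1 0.027 after median centring, that of Hsd11b2 with Dusp1 -0.17 as Spearman's rho, and that of Klf9 with Dusp1 0.20 after removal of group means.

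Clusters called numbered 1223 of the 18343 at or above the median level and 850 of the 14557 with 1 cluster per named gene, against 1946 of 36685. These settings test fewer clusters, so the counts alone do not compare. In the main fit 687 of the same 14557 were called. Of the clusters called after median centring 1151 were higher and 672 lower, against 872 and 1074 on the deposited values. Counts called were 2 for chaperones with the one-way test, the trend and the level filter. They were 0 for coregulators with the block and without the liver arrays, and 2 with the trend, array weights, quantile normalization and 1 cluster per gene. Induced genes counted 3 with the block and 2 after median centring and without the liver arrays, and repressed genes 1 after centring, quantile normalization and without the liver arrays. Dual specificity phosphatases counted 1 with the block, the trend and centring and 0 without the liver arrays, Kruppel-like factors 1 with the block and the trend, and MAP kinases 0 with the one-way test, the trend, weights, centring and quantile normalization.

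Leaving out 1 array at a time gave -0.10 to -0.01 for Nr3c1, 0.02 to 0.13 for Hsd11b2, 0.23 to 0.33 for Klf9 and -0.27 to -0.19 for Dusp1, with 1639 to 2555 clusters called. Counts ran from 0 to 0 for steroid receptors, 1 to 1 for chaperones, 0 to 3 for coregulators, 1 to 2 for steroid activation, 1 to 8 for induced genes, 0 to 1 for repressed genes, and 0 to 2 each for dual specificity phosphatases, Kruppel-like factors and MAP kinases. The r ran from 0.04 to 0.28 for Nr3c1 and Hsd11b2, -0.38 to 0.042 for Nr3c1 and Klf9, -0.43 to 0.13 for Nr3c1 and Dusp1, -0.050 to 0.52 for Hsd11b2 and Klf9, -0.086 to 0.18 for Hsd11b2 and Dusp1, and -0.45 to -0.09 for Klf9 and Dusp1. A second cluster could not be tried, as each member has 1.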

Other observations

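Nr3c1 and the mean of 11 clock and clock output genes had r = 0.93 within CPS (exact p = 0.00972, adjusted p 0.306 over 40 relations; rho = 0.83, exact p = 0.0583). The r of Nr3c1 with the kidney gene mean within CPS was 0.82, and the same 2 arrays, CPS replicates 4 and 5, were highest in that mean too (7.32 and 7.34). CPS replicates 4 and 5 held the highest CPS values of Nr3c1, 7.68 and 7.70, and of the clock mean, 6.55 and 6.58. Over all 12 arrays r was 0.36 (permutation p = 0.253), and within LD kidneys it was -0.03 (exact p = 0.956), where LD replicate 3 had the lowest clock mean (6.35) beside an Nr3c1 of 7.73. The difference between the groups was not tested. Fkbp5 was more spread in CPS kidneys, from 7.99 to 8.26, than in LD kidneys, from 8.05 to 8.12, and this difference in spread was not tested either.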
